A study of Danio rerio with 6 samples.

Results

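The nuclear genes of the respiratory chain were followed in cd41-positive cells of zebrafish embryos that carried a ddx41 mutation and of embryos labelled wildtype, all collected at 40 hours post fertilization. The genes were chosen by name. They were the rows of the count table outside the mitochondrial chromosome whose Ensembl symbol marks a subunit, assembly factor or inhibitor of complexes I to V, that is nduf, sdh, uqcr, cox4 to cox8 and atp5 genes. Such a symbol was held by 104 of the 32105 genes counted, and 100 of these had at least 10 counts in at least 3 libraries and were kept. The kept genes were 37 subunits of complex I, 4 of complex II, 8 of complex III, 20 of complex IV and 18 of complex V, with 7 complex I assembly factors, 4 complex II assembly factors and 2 genes of the inhibitor of complex V. The ndufa4 genes were placed in complex IV, where their product sits in spite of its name. The mutant group had 3 libraries of ddx41 mutants, whose allele the labels do not name. The wildtype group had 3 libraries, which the series title calls siblings. Both groups share the cd41 fluorescent reporter, a mark of stem and progenitor cells of the blood and of thrombocytes, which act as platelets in fish.

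The respiratory chain sits in the inner mitochondrial membrane. Complexes I and II pass electrons to coenzyme Q, complex III passes them to cytochrome c and complex IV passes them to oxygen, while complex V, the ATP synthase, uses the proton gradient that complexes I, III and IV build up. All of these complexes except complex II mix subunits encoded in the nucleus with a few encoded on the mitochondrial chromosome. Blood stem cells are known for relying little on respiration, and red cell precursors carry mitochondria.

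The depth was 14577735 to 15912260 counts for the mutant libraries, against 17001423 to 17639699 counts for the wildtype ones. Of these 26.5% to 30.7% fell on the mitochondrial chromosome in mutants and 21.3% to 27.6% in wildtypes. The level of ddx41 was not analysed here and gives no check of the genotype labels. The gene of the sorting marker, itga2b, had levels of 2.62, 4.33 and 6.44 CPM (the count relative to the library total, scaled with TMM factors) in mutant replicates 1 to 3, against 3.22, 1.18 and 1.6 CPM in wildtype replicates 1 to 3. Mutant replicates 2 and 3 were the most alike pair of libraries, with a chi-square per degree of freedom of 18.3 over genes, while mutant replicate 1 reached 110.0 and 107 against them. Whether each library had its own clutch or cell sort is not stated in the labels, and the p-values therefore reflect the spread among these 6 libraries and nothing wider.

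To determine whether transcripts of the respiratory chain differ between ddx41 mutant and wildtype cells, the 100 kept genes were read from a test over all 18722 genes with enough counts. At a Benjamini-Hochberg adjusted p below 0.05 (edgeR quasi-likelihood test), COX4I1 and COX7A2L rose in the mutants and no respiratory chain gene fell. Both genes were placed with complex IV by name. Of all tested genes 5.33% passed. The 2 higher ones of 100 stand beside 3.34% of all tested genes that were higher in mutants, and the 0 lower ones beside 1.99%, so the share that passed was not above that of all genes. At an unadjusted p below 0.05, 29 of the 100 were higher and 3 lower in mutants, against 11.9% and 10.9% of all tested genes. DESeq2 put 12 of the 100 higher and 0 lower (6.93% and 6.24% of all genes), and limma voom with sample weights put 18 higher and 0 lower (7.8% and 7.22% of all genes). The log2 fold change of the 98 other genes did not pass the edgeR test.

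The estimates of the 100 genes leaned to one side although few passed singly. The log2 fold change (mutant over wildtype) was positive for 83 genes and negative for 17, with a median of 0.43, or 1.34-fold, and a range of −1.23 to 1.64. Over all tested genes 51.0% were positive and the median was 0.02. The genes also moved together between libraries of a genotype. In mutant replicates 1 to 3, 84, 78 and 83 of the 100 lay above their wildtype mean on a log2 scale. In wildtype replicates 1 to 3 the numbers were 30, 79 and 35, so wildtype replicate 2 was within the mutant range by this count. Every mutant library lay above every wildtype library in 46 of the 100 genes and below in 4, where all genes gave 15.3% and 13.4%, and in the other 50 the libraries of the genotypes overlapped. All 29 genes with a mean of 50 CPM or more were positive, with a median of 0.50, while the 71 genes below that level included 17 negative ones and had a median of 0.39. Scaling with library totals in place of TMM factors, an alternative chosen after seeing the data, moved the median of all genes by −0.14 and that of the respiratory chain genes to 0.30, with 75 of 100 positive, so that the gap between the medians was 0.42 against 0.40 with TMM factors. In bulk samples such as these, fewer cells of a type and less RNA per cell cannot be told apart.

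**Figure D1:**
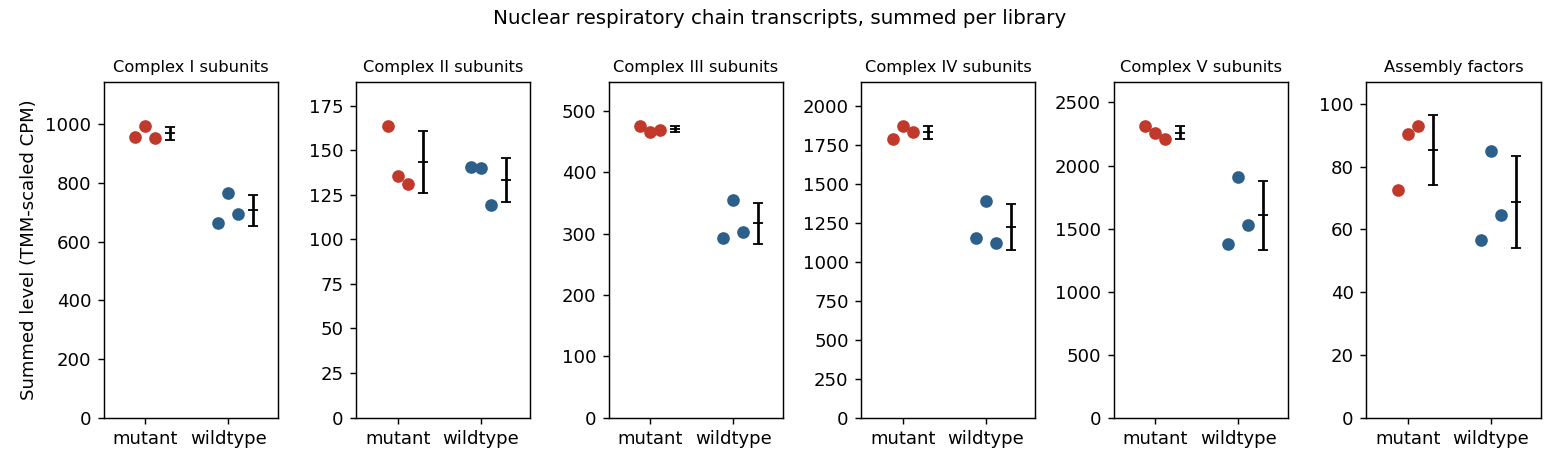
Summed level of the kept subunit genes of each complex and of the assembly factors, in TMM-scaled CPM, with a point per library and the mean ± SD beside the points, n = 3 per genotype. For complexes I, III, IV and V all 3 mutant points lie above all 3 wildtype points, while for complex II and the assembly factors the points of the genotypes overlap.

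The sum over all 100 genes was 5879.8, 5913 and 5789 CPM in mutant replicates 1 to 3, against 3772, 4741 and 3946 CPM in wildtype replicates 1 to 3. On this TMM scale the mutant libraries lay close together and above the wildtype ones, among which wildtype replicate 2 was the highest. The mean sum was 5861 ± 63.9 CPM in mutants, against 4153 ± 517 CPM in wildtypes (SD, n = 3 each), a ratio of 1.41. As a share of all counts without any scaling factor the same genes held 0.508%, 0.575% and 0.593% in mutants, against 0.405%, 0.449% and 0.444% in wildtypes. The genotypes did not overlap by this measure either, nor as a share of nuclear counts, which was 0.733% to 0.807% in mutants and 0.559% to 0.587% in wildtypes. As a share of all counts the mutants were not close together, with replicate 1 lowest, and wildtype replicates 2 and 3 were nearly equal.

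Each complex other than complex II was higher in every mutant library when its subunits were summed. Complex I summed to 958, 994 and 955 CPM in mutants, against 663, 766 and 695 CPM in wildtypes, a ratio of 1.37. Complex III summed to 476, 466 and 469 CPM in mutants, against 293, 355 and 303 CPM in wildtypes, a ratio of 1.48. Complex IV summed to 1788, 1871 and 1836 CPM in mutants, against 1150, 1390 and 1124 CPM in wildtypes, and had a ratio of 1.5, the highest of the complexes. COX4I1 alone made up a large part of the complex IV sum, with a mean of 702 of 1832 CPM in mutants and 369 of 1221 CPM in wildtypes. By the median log2 fold change of its subunits, complex IV (0.39) was below complexes I (0.48), III (0.53) and V (0.52). Complex V summed to 2313, 2262 and 2210 CPM in mutants, against 1377, 1909 and 1531 CPM in wildtypes, a ratio of 1.41. Complex II, which has no subunit on the mitochondrial chromosome, summed to 164, 136 and 131 CPM in mutants, against 140.3, 140.3 and 119 CPM in wildtypes, a ratio of 1.08 with overlapping libraries. The sums are descriptions with no test, and whether the ratio of complex II differs from those of the other complexes was not tested.

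**Figure D2:**
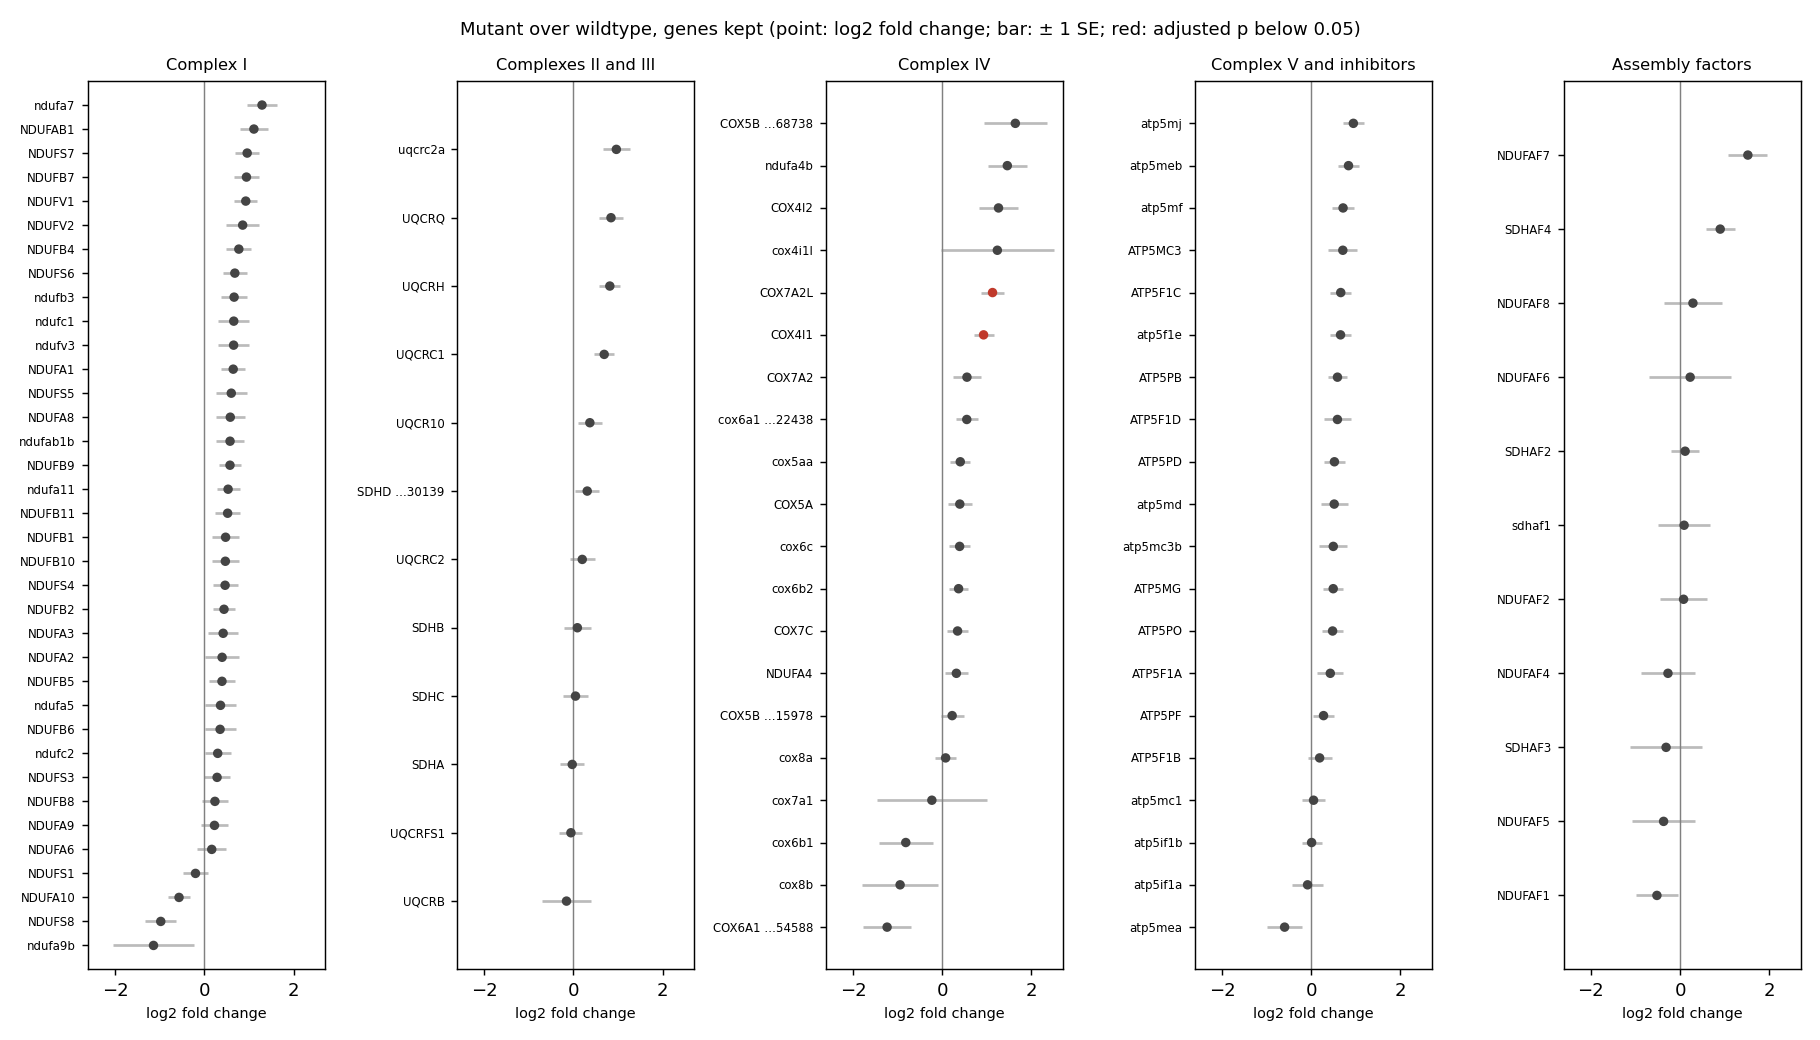
Log2 fold change (mutant over wildtype) of 99 of the kept genes from edgeR, grouped by complex, with bars of 1 SE either side and a vertical line at 0. The 2 genes in red, COX4I1 and COX7A2L, had an adjusted p below 0.05, and 82 of the 99 points lie to the right of the line.

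In complex I, the NADH dehydrogenase, 33 of 37 subunits had a positive log2 fold change, the median was 0.48, and 0 passed in either direction. Every mutant library lay above every wildtype library in 20 of the 37 and below in 3, where all tested genes gave 15.3% and 13.4%. The core subunits, which bind the flavin and the iron-sulfur clusters and carry out catalysis, gave mixed values. Of 7 core genes 5 were positive, with a median of 0.28 and quartiles of −0.07 and 0.89. Of the 30 supernumerary subunits around them 28 were positive, with a median of 0.50 and quartiles of 0.37 and 0.65.

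NDUFV1 encodes the core subunit that binds NADH and the flavin. It had 62.9, 57.2 and 55.5 CPM in mutants, against 26.7, 37.8 and 27.9 CPM in wildtypes. All mutant libraries lay above all wildtype ones, and the log2 fold change of 0.93 ± 0.25 (SE) had an edgeR adjusted p of 0.0698. NDUFS7, which holds the last iron-sulfur cluster before coenzyme Q, had 26.3, 28.9 and 24.4 CPM in mutants, against 13.4, 14.8 and 12.7 CPM in wildtypes. Its log2 fold change was 0.96 (edgeR adjusted p = 0.0778), and like NDUFV1 it passed with DESeq2, at adjusted p values of 0.0306 for NDUFS7 and 0.0244 for NDUFV1. NDUFS8 carries the iron-sulfur clusters that lead to the one in NDUFS7, and its values ran the other way. It had 7.22, 7.17 and 8.61 CPM in mutants, against 13.4, 18.7 and 13.2 CPM in wildtypes. No mutant library reached the lowest wildtype one, and the log2 fold change of −0.98 ± 0.35 (SE) did not pass (edgeR adjusted p = 0.135). Further core genes were NDUFV2 at 0.86, NDUFS3 at 0.28 and NDUFS1 at −0.20 on the log2 scale, and none of them passed.

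Among supernumerary subunits ndufa7 (chromosome 8, 47815292 to 47822963, GRCz10) was nearest to the threshold. It had 19.9, 15.8 and 15.3 CPM in mutants, against 6.65, 7.76 and 6.41 CPM in wildtypes. The mutant libraries were all above the wildtype ones, with a log2 fold change of 1.29 ± 0.33 (SE, edgeR adjusted p = 0.0584; DESeq2 adjusted p = 0.00800). NDUFAB1, the mitochondrial acyl carrier protein, which is both a complex I subunit and a carrier in fatty acid synthesis, had 18.4, 23.6 and 20.7 CPM in mutants, against 9.35, 8.75 and 11 CPM in wildtypes. Its libraries did not overlap (log2 fold change 1.11, edgeR adjusted p = 0.0708), and its paralogue ndufab1b had a log2 fold change of 0.58. NDUFB7, a subunit of the membrane arm, had a log2 fold change of 0.94 (edgeR adjusted p = 0.0832). NDUFA10 ran the other way, with 21.7, 25.1 and 24.4 CPM in mutants, against 33.6, 35.2 and 36.7 CPM in wildtypes. Its libraries were tight and did not overlap, and its log2 fold change was −0.57 ± 0.25 (SE, edgeR adjusted p = 0.213).

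Complex II, succinate dehydrogenase, feeds electrons from the citric acid cycle into the chain, and its median log2 fold change of 0.07 was the smallest of the 5 complexes. SDHA, the flavoprotein that oxidises succinate, had 30.2, 26.8 and 38.1 CPM in mutants, against 30.6, 29.7 and 36.4 CPM in wildtypes, a log2 fold change of −0.02 ± 0.27 (SE). SDHB, the iron-sulfur subunit, was at 0.09 and the membrane anchor SDHC at 0.05 on the same scale. The other membrane anchor, SDHD (ENSDARG00000030139), was at 0.31, with wildtype replicate 2 above 2 of the 3 mutant libraries. In all 4 genes the libraries of the genotypes overlapped, and 0 had an unadjusted p below 0.05. That median turned to −0.01 with limma voom, to −0.08 with library totals and to −0.06 without mutant replicate 1.

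In complex III, 6 of 8 subunits were positive with a median of 0.53, and 0 passed. UQCRH, the hinge protein between cytochrome c1 and cytochrome c, had 77.9, 100.4 and 80.6 CPM in mutants, against 45.3, 54.4 and 47.1 CPM in wildtypes. Its libraries did not overlap, with a log2 fold change of 0.82 ± 0.24 (SE, edgeR adjusted p = 0.0811). UQCRQ, a small subunit beside cytochrome b, had a log2 fold change of 0.84 (edgeR adjusted p = 0.0952), again without overlap. The large core proteins, which face the matrix and hold no redox centre, were uqcrc2a at 0.97, UQCRC1 at 0.69 and UQCRC2 at 0.20. The Rieske iron-sulfur gene UQCRFS1, the catalytic subunit of this set, had 42.3, 30.9 and 40.4 CPM in mutants, against 44.8, 38.3 and 34.8 CPM in wildtypes, and a log2 fold change of −0.05 with overlapping libraries.

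**Figure D3:**
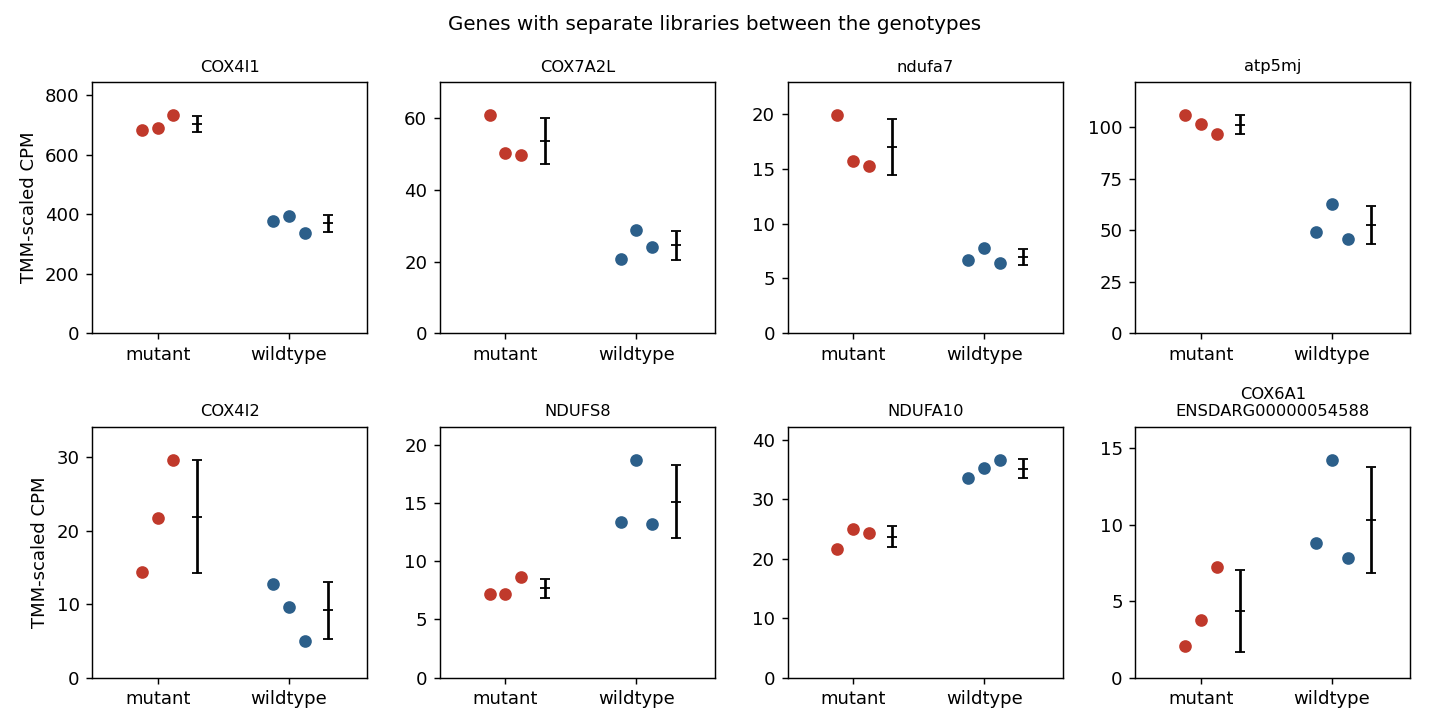
Levels of 8 respiratory chain genes in TMM-scaled CPM, with a point per library and the mean ± SD beside the points, n = 3 per genotype. In the first 5 panels all mutant points lie above all wildtype points, and for NDUFS8, NDUFA10 and the COX6A1 gene ENSDARG00000054588 all mutant points lie below.

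Complex IV, cytochrome c oxidase, held both genes that passed. COX4I1 (ENSDARG00000032970, chromosome 18, 30529585 to 30531987) encodes subunit 4, a nuclear subunit needed early in assembly, and was the most abundant of the 100 genes per length. It had 683, 689 and 733 CPM in mutants, against 375, 394 and 337 CPM in wildtypes, and averaged 702 ± 27.1 CPM in mutants, against 369 ± 29.0 CPM in wildtypes (SD, n = 3 each). The lowest mutant library was far above the highest wildtype one. COX4I1 rose 1.90-fold, a log2 fold change of 0.93 ± 0.22 (SE, edgeR adjusted p = 0.0471; DESeq2 adjusted p = 0.00462), higher in 3 of 3 mutant libraries. The edgeR adjusted p was 0.0428 without mutant replicate 1, 0.176 without mutant replicate 2 and 0.182 without mutant replicate 3. It was 0.0712, 0.119 and 0.145 without wildtype replicates 1, 2 and 3. Of the 6 libraries only mutant replicate 1 could thus be left out with the call kept. The log2 fold change of COX4I1 stayed between 0.86 and 0.97 in these fits, which hold a replicate fewer. The edgeR adjusted p is given again below. With all libraries this adjusted p was 0.0646 with no filter on low counts and 0.0621 with library totals, so the call was lost there too.

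COX7A2L (ENSDARG00000054907, chromosome 12, 25106023 to 25110216) encodes a relative of subunit 7a that in mammals joins complexes III and IV into supercomplexes. Only its name placed it among the complex IV subunits here. It had 61.0, 50.4 and 49.7 CPM in mutants, against 20.9, 28.9 and 24.0 CPM in wildtypes, and averaged 53.7 ± 6.30 CPM in mutants, against 24.6 ± 4.03 CPM in wildtypes (SD, n = 3 each). The genotypes did not overlap. COX7A2L rose 2.19-fold, a log2 fold change of 1.13 ± 0.26 (SE, edgeR adjusted p = 0.0400; DESeq2 adjusted p = 0.00422), higher in 3 of 3 mutant libraries. Its edgeR adjusted p was 0.0466 without mutant replicate 1, 0.133 without mutant replicate 2 and 0.124 without mutant replicate 3. It was 0.0803, 0.113 and 0.114 without wildtype replicates 1, 2 and 3, and 0.0507 with library totals. This call too was lost with library totals and on leaving out any library but mutant replicate 1. The log2 fold change of COX7A2L stayed between 1.02 and 1.25 with a library left out. The gene shares 34 exon bases with si:dkey-20j3.4 on the opposite strand, which had 0.0646 to 0.255 CPM in mutants and 0.106 to 0.207 CPM in wildtypes.

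Of the 20 kept complex IV genes 16 were positive, with a median of 0.39. The abundant single-copy subunit genes lay near that median, with cox6c at 0.39 and COX7C at 0.34. Both of these are small membrane subunits. COX4I2, the isoform of subunit 4 that in mammals is expressed in lung and under low oxygen, had 14.4, 21.7 and 29.7 CPM in mutants, against 12.8, 9.68 and 5.02 CPM in wildtypes. The lowest mutant library was just above the highest wildtype one, and the log2 fold change of 1.26 ± 0.43 (SE) did not pass (edgeR adjusted p = 0.126). The largest log2 fold change of the 100, 1.64 for the COX5B gene ENSDARG00000068738, rested on mutant replicate 2. That gene had 3.10, 20.2 and 4.78 CPM in mutants, against 2.64, 2.54 and 3.83 CPM in wildtypes (edgeR adjusted p = 0.210). The most negative value, −1.23 ± 0.54 (SE, edgeR adjusted p = 0.216), belonged to the COX6A1 gene ENSDARG00000054588. It had 2.06, 3.75 and 7.27 CPM in mutants, against 8.82, 14.3 and 7.81 CPM in wildtypes, with no overlap of the genotypes. This gene shares 161 exon bases with armc5 on the opposite strand, whose level was of similar size. For armc5 it was 7.14, 8.27 and 9.82 CPM in mutants, against 4.65, 5.40 and 12.9 CPM in wildtypes.

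In complex V, 17 of 18 subunits were positive with a median of 0.52, and 0 passed. The median was 0.59 for the 5 genes of the F1 head and central stalk, where ATP is made, 0.50 for the 4 genes of the peripheral stalk, 0.50 for the 3 genes of the rotating c ring and 0.62 for the 6 accessory genes of the membrane part. The gene nearest to the threshold was atp5mj (chromosome 20, 20826558 to 20830541), a small accessory subunit of the membrane part. It had 106, 101 and 96.7 CPM in mutants, against 49.2, 62.9 and 45.7 CPM in wildtypes, without overlap. Its log2 fold change was 0.95 ± 0.24 (SE, edgeR adjusted p = 0.0529), and it passed with DESeq2 at an adjusted p of 0.0122. The accessory subunit gene atp5meb had a log2 fold change of 0.84 (edgeR adjusted p = 0.0701).

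ATP5F1B, the beta subunit that makes ATP, had 322, 279 and 273 CPM in mutants, against 182, 321 and 262 CPM in wildtypes. Its libraries overlapped through wildtype replicate 2, and the log2 fold change was 0.19 ± 0.27 (SE). ATP5F1A, the alpha subunit, was at 0.43 with wildtype replicate 2 again within the mutant range. ATP5F1C, the rotating gamma subunit, had 180.3, 231 and 236 CPM in mutants, against 119, 148 and 142 CPM in wildtypes, a log2 fold change of 0.66 without overlap (edgeR adjusted p = 0.135). The epsilon subunit atp5f1e was also at 0.66, and it shares exon bases with chmp4ba on the opposite strand.

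**Figure D4:**
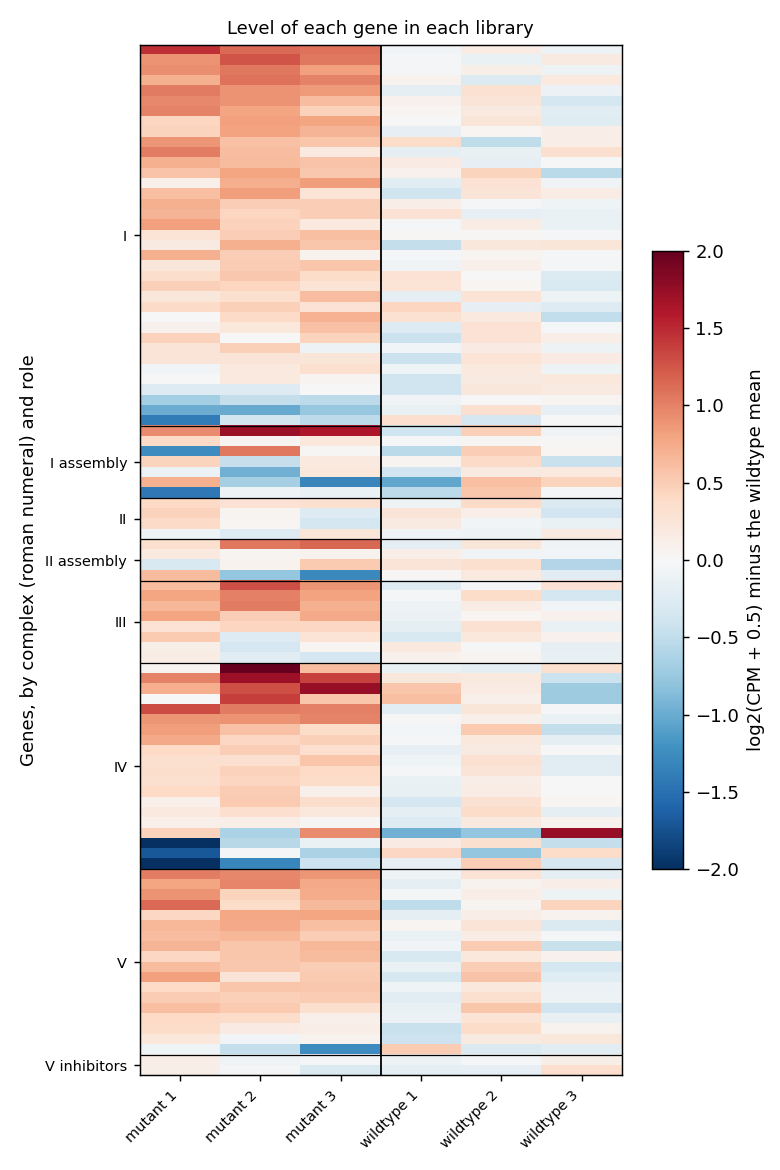
Log2 level of each kept gene in each library relative to the gene's wildtype mean, from TMM-scaled CPM, with mutant libraries left of wildtype libraries and genes grouped by complex. The median over the 100 genes was 0.41, 0.47 and 0.46 in mutant replicates 1 to 3, against −0.09, 0.19 and −0.08 in wildtype replicates 1 to 3. On this scale wildtype replicate 2 stands between the mutants and the other wildtypes. As a share of all counts with no scaling factor, wildtype replicates 2 and 3 were at 0.449% and 0.444%.

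The naming rule also held genes that act on the complexes without being part of them. The 11 assembly factors it matched had a median log2 fold change of 0.09, with 7 positive, the pair of inhibitor genes had −0.03, and 0 passed. NDUFAF7, a methyltransferase that acts in complex I assembly, had 9.29, 16.5 and 15.2 CPM in mutants, against 3.38, 6.58 and 4.34 CPM in wildtypes. All mutant libraries lay above all wildtype ones, with a log2 fold change of 1.52 ± 0.44 (SE, edgeR adjusted p = 0.0778; DESeq2 adjusted p = 0.0144). SDHAF4, which helps SDHA bind SDHB, had 18.3, 30.8 and 32.7 CPM in mutants, against 12.8, 17.3 and 13.8 CPM in wildtypes. Its genotypes did not overlap either, and its log2 fold change of 0.90 did not pass (edgeR adjusted p = 0.143). SDHAF3 was at −0.31 and NDUFAF1, a complex I assembly factor, at −0.52, both with overlapping libraries. The inhibitor of the ATP synthase, which binds F1 and stops it from running backwards, is encoded by atp5if1a and atp5if1b in fish. Neither gene separated the genotypes, and atp5if1b had 95.7, 81.6 and 85.6 CPM in mutants, against 81.2, 85.2 and 94.5 CPM in wildtypes. The log2 fold change was 0.01 ± 0.22 (SE) for atp5if1b and −0.08 ± 0.34 (SE) for atp5if1a.

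Many subunits have paralogues in zebrafish, and in 6 families the share of a paralogue in the summed TPM of its family, a level that divides counts by gene length, did not overlap between genotypes. These shares do not depend on how libraries are scaled against each other, and they are given with no test, since 3 libraries against 3 cannot go below an exact p of 0.1. How often paralogue shares separate over all genes was not computed, so the 6 families have no reference share. For levels of single genes, 15.3% of all tested genes lay above and 13.4% below in every mutant library. In a family of 2 genes the 2 shares mirror each other. The COX6A1 gene ENSDARG00000054588, whose exons overlap armc5, held 3.49%, 7.68% and 13.4% of cox6a TPM in mutants, against 20.9%, 26.7% and 21.0% in wildtypes. The rest was cox6a1 (ENSDARG00000022438), whose own log2 fold change was 0.55. Likewise cox6b1 held 1.74%, 5.59% and 7.79% of cox6b TPM in mutants, against 13.0%, 12.1% and 7.80% in wildtypes. The gap there was narrow, between mutant replicate 3 and wildtype replicate 3.

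For the e subunit of complex V, atp5mea held 16.7%, 11.7% and 8.08% of the TPM in mutants, against 37.8%, 22.0% and 22.4% in wildtypes, where atp5meb made up the rest. Of the c ring TPM, atp5mc1 held 50.5%, 57.0% and 54.4% in mutants, against 62.4%, 59.4% and 65.8% in wildtypes. Within complex I, ndufa9b held 1.94%, 9.43% and 8.10% of ndufa9 TPM in mutants, against 25.6%, 9.63% and 14.2% in wildtypes, a gene with few counts. In these 5 families the paralogue with the lower share in mutants was a gene that itself did not pass the test. The share of ndufa4b in ndufa4 TPM was higher in mutants, at 4.97%, 6.11% and 5.34%, against 3.84%, 2.46% and 1.81% in wildtypes. NDUFA4, which held most of that TPM, had the lower share in mutants. It held 95.0%, 93.1% and 91.9% in mutants, against 95.3%, 97.5% and 98.0% in wildtypes. In the cox4 family the dominant gene was the same in all libraries, with COX4I1 at 97.0% to 98.4% of TPM in mutants and 97.4% to 98.9% in wildtypes. In the cox5a, cox5b, cox7a, cox8, ndufab1, uqcrc2, atp5if1 and sdhd families no share separated the genotypes. The cox7a family was taken as COX7A2 and cox7a1 only. It left out COX7A2L, and shares with that gene included were not computed.

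**Figure D5:**
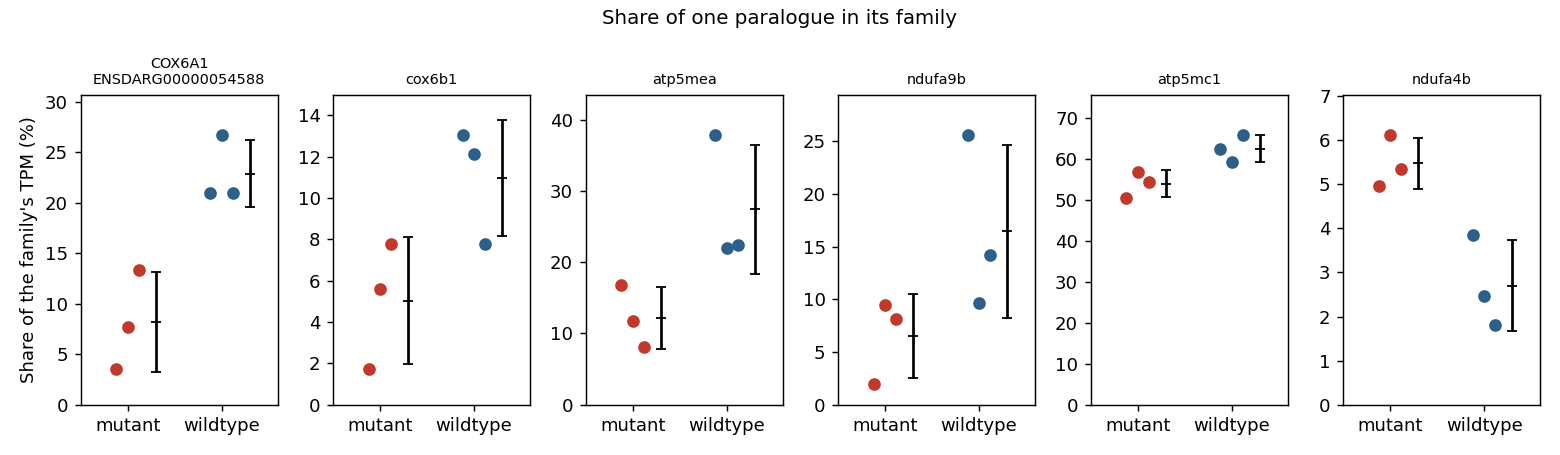
Share of a paralogue in the summed TPM of its family, in percent, with a point per library and the mean ± SD beside the points, n = 3 per genotype. All mutant points lie below all wildtype points for the COX6A1 gene ENSDARG00000054588, cox6b1, atp5mea, ndufa9b and atp5mc1, and above them for ndufa4b.

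Levels per length kept nearly the same order in both genotypes, with a Spearman correlation of mean TPM of 0.968 across the 100 genes, which share libraries and depth. TPM carry no TMM factor, and their ratios between genotypes are not those of CPM. COX4I1 had 1469.6 TPM in mutants and 901 TPM in wildtypes, followed by cox6c with 749.9 TPM in mutants and 662 TPM in wildtypes. In complex V the most abundant subunit was ATP5MG, a membrane subunit, with 434 TPM in mutants and 357 TPM in wildtypes. The top complex III gene UQCRH had 157 TPM in mutants and 103 TPM in wildtypes, and the top complex I gene ndufa11 had 122 TPM in mutants and 100.3 TPM in wildtypes. The median TPM of a subunit gene was 41.1 in mutants and 32.0 in wildtypes for complex I, 42.5 in mutants and 44.2 in wildtypes for complex II, 55.3 in mutants and 49.0 in wildtypes for complex III, 111 in mutants and 79.4 in wildtypes for complex IV, and 133 in mutants and 131 in wildtypes for complex V.

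Of the 104 genes 4 did not reach 10 counts in 3 libraries. NDUFA12, a complex I subunit whose exons overlap NR2C1 on the same strand, had 7, 12 and 7 counts in mutants, against 5, 5 and 7 counts in wildtypes. The other SDHD gene (ENSDARG00000055712) had 1, 4 and 0 counts in mutants, against 6, 10 and 0 counts in wildtypes. NDUFA4L2 had 0, 9 and 18 counts in mutants, against 16, 0 and 4 counts in wildtypes, and ndufa4l2b had 0, 5 and 21 counts in mutants and 0 in every wildtype library. Just inside the limit were cox4i1l, with 4, 25 and 11 counts in mutants against 14, 6 and 0 counts in wildtypes, and cox7a1, with 16, 5 and 31 counts in mutants against 3, 4 and 73 counts in wildtypes. No kept gene was under the limit in all libraries of a genotype, and 94 were at or above it in all 6. Exons of 14 of the 104 overlap another gene, and the 87 kept genes without such overlap had a median log2 fold change of 0.42.

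The subunits of the same complexes that are encoded on the mitochondrial chromosome leaned the same way. All 13 protein genes had a positive log2 fold change with a median of 0.76, 11 of them without overlap, and 0 passed. Of all tested genes 51.0% were positive and 15.3% lay above in every mutant library. Their sum was 35995, 32783 and 34602 CPM in mutants, against 16439.5, 25431 and 17938 CPM in wildtypes, with wildtype replicate 2 again the highest wildtype library. MT-CO1, the catalytic subunit of complex IV, had a log2 fold change of 0.85 (edgeR adjusted p = 0.108), and mt-atp8, a complex V subunit, one of 1.06 (edgeR adjusted p = 0.0761).

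Other genes that serve the chain were read from lists. Among 14 tested genes of coenzyme Q synthesis, 1 rose, 0 fell and 11 were positive, where 3.34% of all tested genes were higher and 1.99% lower. The one was COQ7, a hydroxylase of that pathway, with 20.8, 36.2 and 40.6 CPM in mutants, against 5.17, 5.40 and 7.71 CPM in wildtypes. It was 5.34-fold higher (log2 fold change 2.42 ± 0.37 SE, edgeR adjusted p = 0.0116), and the highest adjusted p with a library left out was 0.0841. Of 17 tested genes of protein import into mitochondria 2 rose and 0 fell, beside the same 3.34% and 1.99%, namely TIMM50, a receptor of the inner membrane translocase, at 1.96 (edgeR adjusted p = 0.0142), and TIMM8A, a chaperone of the intermembrane space, at 1.44 (edgeR adjusted p = 0.0441). With a library left out their adjusted p reached 0.0855 for TIMM50 and 0.179 for TIMM8A.

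No gene passed among the further assembly factors of complexes I (7 tested), III (6), IV (20) and V (3), which had median log2 fold changes of 1.08, 0.90, 0.32 and 0.43. All 7 further complex I factors were positive. ECSIT, one of them, had 15.8, 16.2 and 15.5 CPM in mutants, against 4.59, 6.64 and 6.67 CPM in wildtypes (log2 fold change 1.41, edgeR adjusted p = 0.0524). The electron carrier gene cycsb, a cytochrome c, was at −0.17 and CYC1, the cytochrome c1 subunit of complex III that the naming rule does not reach, at 0.33, both with overlapping libraries. Of 19 genes of mitochondrial biogenesis and mitochondrial transcription 0 passed, and the median was 0.24. Of 14 citric acid cycle genes 0 passed, and the median was 0.07. Glycolysis genes leaned the other way, with 0 of 24 higher, 3 lower and a median of −0.41, where 3.34% of all tested genes were higher and 1.99% lower. ENO3, an enolase, fell by 1.58 on the log2 scale (edgeR adjusted p = 0.0271), GAPDH by 1.34 (edgeR adjusted p = 0.0416) and TPI1 (ENSDARG00000040988), the triosephosphate isomerase gene, by 1.06 (edgeR adjusted p = 0.0445). With a library left out the adjusted p reached 0.125 for ENO3, 0.173 for GAPDH and 0.191 for TPI1. Each of these calls was thus lost in some such fit. Such fits also hold a replicate fewer, and whether a single library carried a call was not tested.

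Markers of several cell types moved with genotype, and their part in the respiratory chain result was not tested. Of all tested genes 3.34% were higher and 1.99% lower in mutants, while 15.3% lay above and 13.4% below in every mutant library. All 16 tested erythroid markers lay higher in every mutant library and 14 rose, with a summed level of 10972, 34744 and 32636 CPM in mutants, against 737, 2981 and 4352 CPM in wildtypes. Of 12 myeloid markers 3 fell and 0 rose, with sums of 9157 to 12717 CPM in mutants and 15455 to 31805 CPM in wildtypes. Of 9 thrombocyte markers 5 rose and 0 fell, with sums of 424 to 837 CPM in mutants and 207 to 502 CPM in wildtypes. Of these 9 genes 7 had a positive log2 fold change and 2 a negative one. The negative ones were mpl at −2.68 (edgeR adjusted p = 0.0688), lower in every mutant library, and FLI1 at −0.88 with overlapping libraries. The gene f5, a large part of the sum, was at 0.14 with overlapping libraries. Of 9 blood stem and progenitor markers 1 rose and 0 fell, with sums of 277 to 399 CPM in mutants and 203 to 409 CPM in wildtypes. Most of them leaned down, with 2 positive and 7 negative log2 fold changes and a median of −0.54. The positive ones were TAL1 at 2.58 (edgeR adjusted p = 0.0262), the one that rose, and LMO2 at 1.79 with overlapping libraries. Of the negative ones gata2b, at −2.03 (edgeR adjusted p = 0.174), was lower in every mutant library.

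Markers of tissues outside the blood were also present, and their counts stand beside the same 3.34% higher and 1.99% lower of all tested genes. Lens markers summed to 57.6 to 204 CPM in mutants and 9.05 to 10.9 CPM in wildtypes, with 7 of 8 higher. Ionocyte markers, of a cell type rich in mitochondria, summed to 62.9 to 159 CPM in mutants and 21.8 to 42.9 CPM in wildtypes, with 2 of 8 higher. Neuron and retina markers summed to 36.3 to 47.9 CPM in mutants and 96.9 to 444 CPM in wildtypes, with 3 of 8 lower. Skeletal muscle markers, where respiration genes are abundant, summed to 109 to 125 CPM in mutants and 108 to 172 CPM in wildtypes, with 0 of 11 passing. Heart markers stayed at 1.03 to 2.33 CPM in mutants and 0.155 to 0.528 CPM in wildtypes, with 2 of the 4 matched genes at 0 in every wildtype library. Hatching gland markers reached 19364 CPM in mutant replicate 1 and 1038 to 1198 CPM in the other mutants. In wildtypes they reached 10064 CPM in replicate 1, with 1757 and 4182 CPM in replicates 2 and 3. Of the 6 tested hatching gland genes 1 was higher and 0 lower. Endothelial markers summed to 36.2 to 109.9 CPM in mutants and 35.3 to 73.7 CPM in wildtypes, with 1 of 9 higher and 0 lower. Of these 9 genes 2 lay above and 2 below in every mutant library, where all tested genes gave 15.3% and 13.4%. The log2 fold change was positive for 7 and negative for 2. The genes that lay above were stab2 at 3.07 (edgeR adjusted p = 0.0263), the one that passed, and flt1 at 0.74 (edgeR adjusted p = 0.585). Those that lay below were stab1 at −0.73 (edgeR adjusted p = 0.510) and tek at −1.03 (edgeR adjusted p = 0.374).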

How the data were processed

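RNA-seq of cd41-positive cells (polyadenylated RNA, Zymo extraction, BGI low-input libraries, per the labels' protocols) was used for 3 mutant and 3 wildtype libraries. Per the file headers, the authors made the counts with featureCounts 1.5.0-p1 from paired fragments, with both mates mapped and chimeric pairs dropped and setting no strand or multiple mapping option. The annotation was that of Ensembl release 85 on GRCz10. STAR 2.4.2a, Cufflinks 2.2.1, Picard, Trim Galore and DESeq2 are named without roles, per the submitters' processing notes. The deposited values are raw counts, and other values in the table, such as gene length, are the authors' own. Symbols came from a table of Ensembl names, which matched 26269 of the 32105 genes.

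Genes were tested with edgeR 4.0.16 (R 4.3.3), using TMM factors, filterByExpr with a minimum count of 10 and a minimum total of 15, genotype as the one term, the two-sided quasi-likelihood test and Benjamini-Hochberg adjustment over 18722 genes. The SE was taken as log2 fold change over root F. CPM use TMM-scaled library sizes and TPM use gene lengths alone. Alternatives were RLE size factors, no filter, 1 CPM in 3 libraries, DESeq2 1.42.0, limma 3.58.1 voom with sample weights, a replicate block, nuclear genes only, each library left out and, added later, library totals. No pair of libraries agreed within counting noise.

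The respiratory chain genes and all lists were chosen with earlier results of these data known. Of 270 list entries 20 were unmatched and 13 ambiguous. Named genes were drawn from those with adjusted p below 0.05 and from members of families with paralogues. They also came from the 2 genes in each complex with the smallest p in each direction and the 2 with the highest TPM. Not all of these were given with values. Among those left out were UQCRB at −0.15, NDUFB9 at 0.57 and cox8b at −0.94 on the log2 scale, none of which passed. NDUFS1, NDUFS3, NDUFS7, NDUFV2, NDUFB7, NDUFAF1, NDUFAF7, UQCRC1, COX7C, ATP5F1A, ATP5F1B and ATP5F1C were added after their values were seen. A gene of the set is counted in the summaries and is not reported here by itself. On simulated counts for these 18722 genes, changes were planted only in genes drawn from those with higher mean counts. The share of planted changes recovered was 1.49% for 67 genes at 2-fold, 40.3% for 67 genes at 4-fold and 68.2% for 66 genes at 8-fold. Genes with few counts are not covered by these shares. Only the planted genes were changed there, and 76 genes were called, against 998 in the data. The adjustment was therefore stricter than in the data, and these shares cannot give the recovery of the real test.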

Additional observations from a re-analysis of the deposited data

How the results depend on the processing

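No respiratory chain gene was lower in mutants under any alternative run. The number higher, 2 in the test as reported, was 1 with no filter on low counts, 12 with DESeq2, 18 with limma voom, 0 with library totals and 0 to 4 with each library left out. It was 4 only without mutant replicate 1 and 0 without each of the other 5 libraries. Over all genes, 625 were higher and 373 lower as reported, 1297 and 1168 with DESeq2, 1460 and 1352 with limma voom and, with library totals, an alternative added after seeing the data, 463 and 572. With each library left out they were 51 to 1135 higher and 11 to 832 lower.

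Same-numbered libraries of the genotypes had correlations of deviations of 0.224, 0.155 and 0.0875, and each library correlated best with its own number. The labels do not say that the numbers pair libraries, and whether they do is not known. The test as reported used no pairing, and the replicate block was kept as an alternative. With a replicate block, 917 genes were higher and 653 lower over all genes, and 4 respiratory chain genes were higher and 0 lower.

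The median log2 fold change of the 100 genes lay between 0.30 and 0.52 under all alternatives, with 75 to 86 of the 100 genes positive. With library totals it was 0.30 over the 100 genes, 0.35 for complex I and 0.40 for complex III, and the ratios of summed CPM were 1.25 for complex I, 1.36 for complex III and 1.37 for complex IV. The complex V median ranged from 0.43 to 0.71 with a library left out, the highest without wildtype replicate 2.

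Genes that changed sign included ones with a log2 fold change near 0 or few counts, and also the abundant UQCRC2 (0.20) and ATP5F1B (0.19). ATP5F1B reached −0.00137 with a library left out. With library totals SDHC was −0.11, SDHB −0.0567, cox8a −0.0554, atp5mc1 −0.0846 and atp5if1b −0.14. With limma voom SDHC was −0.0489, cox7a1 0.10, UQCRC2 −0.0028, atp5mc1 −0.0608 and atp5if1b −0.0554. atp5if1b was −0.00698 with RLE factors, −0.00923 with no filter and −0.00705 with DESeq2, and cox7a1 was 0.66 with the block. With a library left out the ranges were −1.41 to 0.11 for SDHAF3, −0.17 to 0.0839 for SDHA, −0.16 to 0.22 for SDHC and −0.13 to 0.26 for SDHB. They were −0.15 to 0.0737 for UQCRFS1, −0.19 to 0.11 for atp5if1a, −0.0677 to 0.0708 for atp5if1b, −0.82 to 2.51 for cox7a1, −0.0459 to 0.17 for cox8a and −0.13 to 0.17 for atp5mc1. The cause of these changes was not tested.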

Other observations

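Some genes of glycolysis and of complex III assembly had libraries that did not overlap between genotypes without passing the test. Of 24 tested glycolysis genes 1 lay above and 9 below in every mutant library. Of 6 complex III assembly genes 3 lay above and 0 below. All tested genes gave 15.3% above and 13.4% below. PKM, a pyruvate kinase gene, had 96.0, 88.3 and 62.3 CPM in mutants, against 128, 245 and 179 CPM in wildtypes (log2 fold change −1.16, edgeR adjusted p = 0.0604). HK2, a hexokinase gene, had 36.5, 35.5 and 23.0 CPM in mutants, against 70.0, 80.8 and 50.7 CPM in wildtypes (log2 fold change −1.08, edgeR adjusted p = 0.0687). In complex III assembly, ttc19 had 6.75, 7.24 and 9.95 CPM in mutants, against 1.58, 0.993 and 3.52 CPM in wildtypes (log2 fold change 1.97, edgeR adjusted p = 0.0864). These genes were chosen after their values were seen.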
